A study of Mus musculus with 6 samples.

Results

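A set of 8 genes that code for matrix proteoglycans and tenascins of the glial scar were followed in the sorted brain cells of reporter mice. They were *Cspg4*, *Cspg5*, *Vcan*, *Bcan*, *Ncan*, *Ptprz1*, *Tnc* and *Tnr*, of 23494 genes in the 3 deposited tables. The genes were chosen by name as the chondroitin sulfate proteoglycans and tenascins of the scar, and their UMI counts were summed over the oligodendrocyte progenitor cells (OPCs), the radial glial precursors (RGPs), the pericytes and cluster 4 of the Tbx18 line, by the cluster numbers the authors deposited. All 8 were present in each of the 3 tables.

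Chondroitin sulfate proteoglycans are proteins that carry long sulfated sugar chains, and with tenascins and hyaluronan they make up much of the matrix between brain cells. After a lesion this matrix becomes denser around the damaged tissue, where it is best known as a brake on axon growth. Versican (*Vcan*), brevican (*Bcan*) and neurocan (*Ncan*) are secreted lecticans that bind hyaluronan at one end and tenascins at the other. NG2 (*Cspg4*), neuroglycan C (*Cspg5*) and the receptor phosphatase PTPRZ (*Ptprz1*) span the membrane, and tenascin-C (*Tnc*) and tenascin-R (*Tnr*) are the multimeric partners of the lecticans.

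The cells came from mice 3 to 4 months old of 2 lines, *NG2-CreERT2/Ai14-flx* and *Tbx18-CreERT2/Ai14-flx*, in which tamoxifen turns on tdTomato in the cells that use the driver and in all their progeny. The driver of the first line is the promoter of *Cspg4* itself, which is active in pericytes and in OPCs, and *Tbx18* is a transcription factor of mural cells. Each line gave 3 groups, namely naive cortex, physical injury (a saline injection into the cortex) and ischemic injury (an injection of the vasoconstrictor endothelin-1 with the nitric oxide synthase inhibitor L-NAME). Tamoxifen preceded the injury by 7 days, and live tdT+/DAPI- cells were sorted 3 days after it and profiled with 3′ droplet sequencing. The cells of several animals were pooled in each of the 6 libraries, so a condition was 1 library, there was no replicate, and no test between conditions was possible.

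The *NG2-tdT+* libraries held 4306 naive, 2563 physical injury and 3586 ischemic injury cells, with medians of 4043, 6322 and 7851 UMIs. The *Tbx18-tdT+* libraries held 686, 3845 and 2047 cells, with medians of 2806, 7376 and 9232 UMIs. Between 0 and 5 cell barcodes were shared by any pair of libraries. Levels are counts per 1000000 UMIs (CPM) of the summed cells, which is a relative scale, so less of one transcript and more of the others cannot be told apart. Brackets give 95% exact Poisson limits of a level or limits of a ratio from exact binomial limits, and these limits, like the floors below, hold counting error alone and say nothing of how animals or sorts differ. The clusters were formed by the authors on expression, so a difference between clusters is a description and not a test. A gene was called past 2-fold where the log2 ratio of CPM + 1 was at least 1 in size and the higher sum reached 50 CPM. A gene that reached 50 CPM in only 1 of the 2 sums could therefore be called in that direction alone. Each captured molecule is counted once at the 3′ end, and levels were compared for each gene between cells and not between genes.

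In the mm10 genome (GENCODE positions) the members lie on 7 chromosomes, with only *Cspg4* (chr9:56865033-56899870, plus strand) and *Cspg5* (chr9:110243783-110262576, plus strand) on a shared one. *Vcan* is at chr13:89655312-89742509 (minus strand), *Bcan* at chr3:87987531-88000230 (minus strand) and *Ncan* at chr8:70093085-70120873 (minus strand). *Ptprz1* is at chr6:22875502-23052916 (plus strand), *Tnc* at chr4:63959785-64047015 (minus strand) and *Tnr* at chr1:159523769-159931729 (plus strand). *Tnc* overlaps 8030451A03Rik on the opposite strand, and whether counting used the strand is not given in the sources used here, so reads of that pair may not be separable and values of *Tnc* carry that doubt. *Cspg5*, *Vcan* and *Tnr* overlap predicted genes on the opposite strand, and *Tnr* and *Ncan* overlap minor genes on their own strand.

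The RefSeq windows (GRCm38.p6) upstream of 4 members show how differently these genes begin. *Tnc* and *Bcan* are shown for the largest differences in opposite directions between RGPs and OPCs, *Cspg4* as the member of mural cells and driver of the line, and *Ptprz1* as a member seen in most OPCs and RGPs. Each sequence is 5′ to 3′ on the strand of the gene and ends just before the annotated gene or, for *Bcan*, 126 bases before it. Capitals mark motifs on either strand. The TATA box was searched for as TATAAA. The GC box was searched for as GGGCGG. The other searches were for CCAAT (the CCAAT box), for CANNTG (the E-box) and for the SOX motif ACAAAG, which these 4 windows lack.
Tnc: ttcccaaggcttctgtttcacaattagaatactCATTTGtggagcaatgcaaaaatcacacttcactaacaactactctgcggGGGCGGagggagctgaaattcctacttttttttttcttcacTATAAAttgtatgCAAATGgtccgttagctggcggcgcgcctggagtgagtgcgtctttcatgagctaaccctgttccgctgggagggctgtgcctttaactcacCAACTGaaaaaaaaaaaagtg
Bcan: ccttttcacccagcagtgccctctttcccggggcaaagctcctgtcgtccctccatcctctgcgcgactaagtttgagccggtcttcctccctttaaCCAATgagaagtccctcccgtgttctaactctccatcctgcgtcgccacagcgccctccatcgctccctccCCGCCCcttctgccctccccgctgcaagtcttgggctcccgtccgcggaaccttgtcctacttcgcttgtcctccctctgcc
Ptprz1: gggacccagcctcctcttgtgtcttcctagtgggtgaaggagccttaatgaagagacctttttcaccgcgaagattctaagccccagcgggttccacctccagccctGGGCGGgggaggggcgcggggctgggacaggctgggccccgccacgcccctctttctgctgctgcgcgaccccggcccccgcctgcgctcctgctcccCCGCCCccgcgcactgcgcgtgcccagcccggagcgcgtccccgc
Cspg4: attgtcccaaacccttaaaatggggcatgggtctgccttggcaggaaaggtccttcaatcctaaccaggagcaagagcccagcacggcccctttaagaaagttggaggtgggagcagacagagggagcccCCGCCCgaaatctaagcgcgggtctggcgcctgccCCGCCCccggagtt

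The *Tnc* window (chr4:64047016-64047265) held a TATA box, a GC box and 3 E-boxes, with 44.8% G and C against a median of 52.4% over all windows. The *Bcan* window (chr3:88000357-88000606) held a CCAAT box and a GC box at 62.0% G and C. The windows of *Ptprz1* (chr6:22875252-22875501) and *Cspg4* (chr9:56864854-56865032, 179 bases) each held 2 GC boxes and none of the other motifs. Among 32851 mouse windows of 250 bases, 12.4% held the TATA box, 32.7% the GC box, 33.8% the CCAAT box, 66.2% the E-box and 16.5% the SOX motif, so each of these motifs is common and a match is only a description of the letters.

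The OPC cluster held 100 naive, 301 physical injury and 294 ischemic injury cells, with medians of 4691.5, 12390 and 11764.5 UMIs. It bore out its name: *Pdgfra*, the receptor that defines OPCs, was at 756, 869 and 690 CPM, and all 8 genes of the OPC list were detected in each library. *Vtn*, the leading pericyte transcript, was at 1039 CPM in the naive OPCs and at 116 and 127 CPM in the injured ones, and leaving out the cells with 2 or more *Vtn* UMIs moved naive *Bcan*, for example, from 745 to 791 CPM. The 8 members together took 10517 CPM in naive OPCs (10253 to 10787), 11342 after physical injury (11235 to 11449) and 9305 after ischemic injury (9210 to 9400), which is about 1 in 100 UMIs of these cells. In pericytes the same sum was 827, 788 and 822 CPM, and without *Cspg4* it was 28.3, 26.5 and 56.7 CPM.

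**Figure D1:**
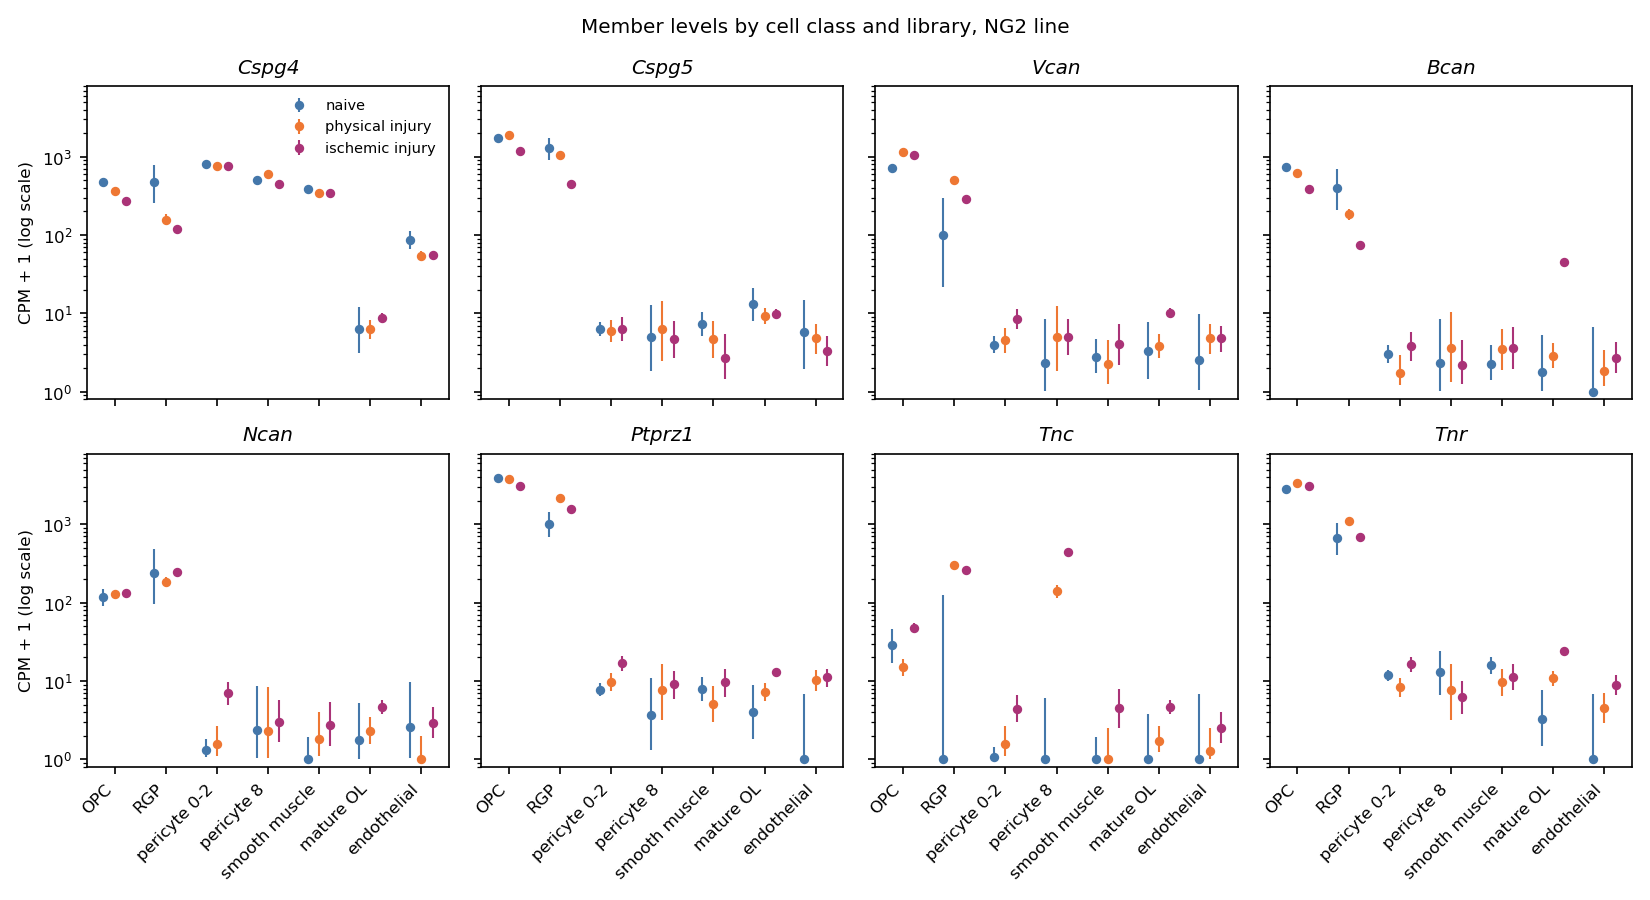
Level of each member (CPM + 1, log scale) in 7 cell classes of the NG2 line, with 1 point per library and exact Poisson 95% limits. Members other than *Cspg4* and *Tnc* stand high in OPCs and RGPs and low in the mural, endothelial and mature oligodendrocyte classes, except *Bcan* in ischemic mature oligodendrocytes (44.6 CPM). *Tnc* is low in OPCs (14.0 to 47.1 CPM) and higher in injured RGPs (303 and 261 CPM) and in injured pericyte cluster 8 (140 and 445 CPM).

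Among the membrane proteoglycans, *Ptprz1*, whose product binds tenascins and pleiotrophin, was at 3878 CPM in naive OPCs, 3794 after physical injury and 3131 in the ischemic one. *Cspg5*, a neural growth factor-like proteoglycan, was at 1747, 1919 and 1188 CPM. Both were lowest after ischemic injury and differed little between naive and physical injury. *Cspg4*, the surface mark of OPCs, was at 476 CPM (421 to 537) in naive OPCs, 366 (347 to 386) after physical injury and 270 (254 to 287) after ischemic injury. For *Cspg4* the 3 intervals did not overlap, and the order ran from naive to physical to ischemic. Naive OPCs also held the most *Vtn* (1039 CPM against 116 and 127 CPM), and naive pericytes had *Cspg4* at 799 CPM. The part of pericyte RNA in this order was not tested beyond leaving out cells with 2 or more *Vtn* UMIs.

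The lecticans did not move together in OPCs. *Vcan* was at 708 CPM in naive OPCs, 1140 after physical and 1057 after ischemic injury, higher in both injured libraries. *Bcan* went the other way, at 745, 625 and 386 CPM, and *Ncan* was at 116, 127 and 132 CPM with overlapping intervals. Of the tenascins, *Tnr* was at 2818, 3357 and 3094 CPM. *Tnc* was at 28.1 CPM (16 counts), 14.0 CPM (53 counts) and 47.1 CPM (186 counts), on few counts in each library.

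After thinning each cell to 1000 UMIs, 88.7% of naive OPCs (80.6 to 94.2, exact Clopper-Pearson), 92.0% after physical injury (88.2 to 94.8) and 88.1% after ischemic injury (83.8 to 91.6) had a UMI of *Tnr*. *Ptprz1* was seen in 84.5%, 91.6% and 90.9% of these cells. Most OPCs thus carried both transcripts in every library. *Cspg4* was seen in 43.3% (33.3 to 53.7), 33.9% (28.4 to 39.7) and 20.3% (15.8 to 25.4), in the same order as its level. In endothelial cells, which should lack these genes, the shares were at most 0.893% for *Tnr*, 2.01% for *Ptprz1* and 7.00% for *Cspg4* at the same depth, with unthinned median depths of 5720 to 8622 UMIs. Without thinning, 79.0%, 80.4% and 78.9% of OPCs had *Cspg4*, so the order appeared only at equal depth. Cells with fewer than 1000 UMIs were left out of the thinned shares, among them 15 OPCs after physical injury and 8 after ischemic injury.

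Whether the injuries moved these genes in OPCs was asked by setting each injured library against the naive one. Against naive, 7 members reached 50 CPM after physical injury, and 0 of them were past 2-fold higher or lower, where 0.843% of 4625 genes were higher and 1.58% lower. After ischemic injury again 0 of 7 were past 2-fold in either direction, where 3.64% of 4758 genes were higher and 2.40% lower. The median log2 ratio of the members was 0.13 against 0.01 for all genes after physical injury, and -0.31 against 0.04 after ischemic injury. Both comparisons share the naive library of 100 OPCs.

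Within these limits the members differed in direction. *Vcan* was higher after both injuries, by 0.69 (0.54 to 0.84) and 0.58 (0.43 to 0.73) on the log2 scale. *Bcan* had log2 ratios of -0.25 (-0.40 to -0.10) and -0.95 (-1.11 to -0.79), the latter just inside the 2-fold line. *Cspg4* had -0.38 (-0.57 to -0.19) and -0.82 (-1.01 to -0.62), the latter -1.13 and past 2-fold when cells were thinned to 1000 UMIs. Over all alternatives the ratio of *Cspg4* ran from -0.56 to -0.15 after physical injury and from -1.13 to -0.59 after ischemic injury. So the lectican that is made widely outside the brain and the lectican of the mature brain parted, with *Vcan* above and *Bcan* below the naive level.

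*Cspg5* stood at 0.13 (0.04 to 0.23) after physical injury and -0.56 (-0.66 to -0.46) after ischemic injury, and *Ptprz1* at -0.03 (-0.10 to 0.03) and -0.31 (-0.37 to -0.24). *Tnr* was at 0.25 (0.18 to 0.33) and 0.14 (0.06 to 0.21), and *Ncan* at 0.13 and 0.19 with intervals that held 0. The ischemic values of *Tnr* and *Ptprz1* turned their sign with the processing, *Tnr* to -0.11 by the mean over cells and to -0.09 after thinning to 1000 UMIs, and *Ptprz1* to 0.04 after thinning. *Tnc* did not reach 50 CPM in either comparison, and its ratios were -1.01 (-1.84 to -0.10) and 0.74 (0.01 to 1.58), the latter 1.57 by the mean over cells and 3.19 after thinning. The intervals of *Tnc* were the widest of the 8 because the naive sum holds 16 counts.

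**Figure D2:**
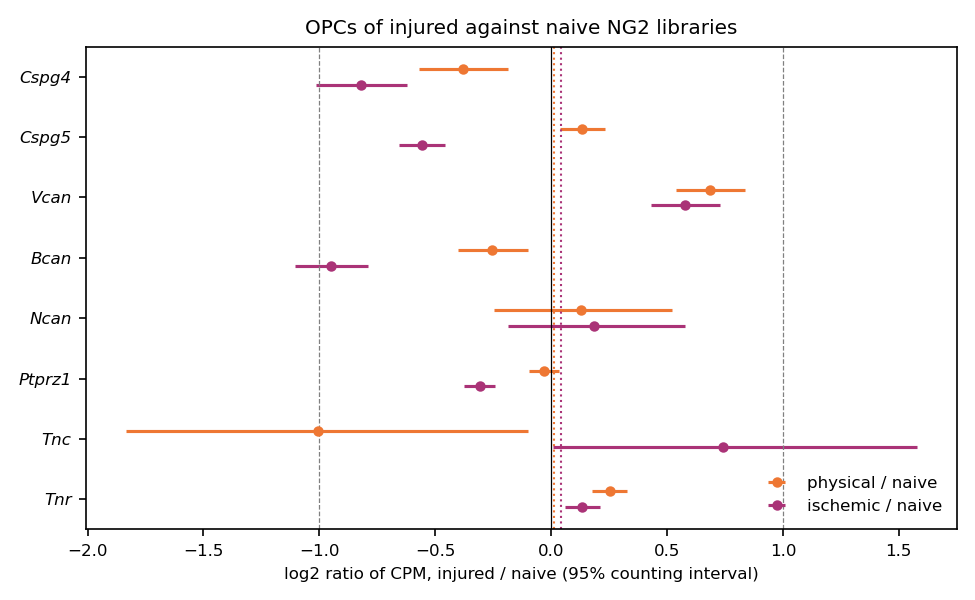
Log2 ratio of each member's CPM in OPCs of the physical and ischemic injury libraries over the naive library, with 95% counting intervals. Dotted lines mark the medians of all genes (0.01 and 0.04) and dashed lines the 2-fold bounds, and *Vcan* stands to the right and *Bcan* and *Cspg4* to the left in both libraries.

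The 2 injured libraries differed from each other mostly in *Cspg5*, *Bcan* and *Tnc*. Ischemic over physical, 0 of the 7 members that reached 50 CPM were past 2-fold, where 1.27% of 4565 genes were higher and 0.394% lower, and the members' median was -0.28 against 0.05 for all genes. *Cspg5* had a log2 ratio of -0.69 (-0.74 to -0.64) and *Bcan* of -0.70 (-0.79 to -0.60). *Tnc*, at 47.1 against 14.0 CPM, had a ratio of 1.75 (1.30 to 2.22) but lay under 50 CPM, and over the alternatives the ratio ran from 1.25 to 3.75. Of its 186 counts in ischemic OPCs, 160 lay in 14 of 294 cells, which held *Vim* at 645 CPM against 193 CPM in the others and *Olig1* at 411 against 969 CPM. *Tnc* in this cluster was thus a matter of few cells, with the other 280 cells at 6.91 CPM.

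The RGP cluster held 17 naive, 76 physical injury and 438 ischemic injury cells. Its injured cells had *Fabp7* at 2071 and 3157 CPM and *Vim* at 1137 and 2507 CPM. In OPCs of the same libraries *Fabp7* was at 576 and 689 CPM and *Vim* at 52.8 and 214 CPM. *Sox2*, another radial glia gene, was at 313 and 320 CPM against 282 and 287 CPM in OPCs. The mitosis gene *Top2a* was at 159 and 266 CPM, and the OPC transcripts *Lhfpl3* (3050 and 1529 CPM) and *Pdgfra* (452 and 322 CPM) were also present. These genes alone do not settle the name, which follows the study. The 17 naive cells carried *Vtn* at 5634 CPM and a median of 987 UMIs, so they are given by level only. In them *Cspg5* was at 1274 CPM (38 counts), *Ptprz1* at 1006 CPM (30 counts) and *Tnr* at 671 CPM (20 counts), while *Tnc* had 0 counts, which allows up to 101 CPM by the floor of 3 counts. The median depth of RGPs was 12792 UMIs after physical injury and 37572.5 after ischemic injury, against 12390 and 11764.5 in OPCs of the same libraries, and its part in the ratios below was not tested beyond the depth alternatives.

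The next question was whether RGPs, which share a library with the OPCs, carry the same matrix genes. The 8 members summed to 5615 CPM (5467 to 5766) in RGPs after physical injury and 3677 CPM (3647 to 3708) after ischemic injury, below the OPCs of both libraries. After physical injury 1 of 8 members was past 2-fold higher in RGPs, where 12.9% of 4823 genes were, and 4 were lower, where 15.3% were. After ischemic injury 1 was higher, where 14.2% of 4918 genes were, and 6 were lower, where 19.6% were. The members' median log2 ratio was -1.02 against -0.15 for all genes in the first library and -1.29 against -0.21 in the second. On the TMM scale, with the genes past 50 CPM found anew, the median of all tested genes in the ischemic comparison moves by 0.59. The ratio of every gene moves by the same amount, that of *Ncan* from 0.88 to 1.32. On that scale 3 members were lower and 2 higher, *Ncan* joining *Tnc*.

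*Tnc*, the tenascin of developing and wounded tissue, was the member that stood higher in RGPs. It was at 303 CPM (269 to 340) in RGPs against 14.0 CPM in OPCs after physical injury, and at 261 CPM (253 to 269) against 47.1 CPM after ischemic injury. The log2 ratios were 4.44 (4.01 to 4.89) and 2.47 (2.26 to 2.69). *Tnc* reached 50 CPM in RGPs but not in OPCs, so it could be called in this direction only. The physical injury level was 169 CPM as a mean over cells and 172 CPM without cells that had 2 or more *Vtn* UMIs. After physical injury 130 of the 294 *Tnc* counts came from 1 RGP, and without the cell with the most counts in each sum the ratio was 3.80, and in the ischemic library, where the top RGP held 701 of 3951 counts, it was 2.42. The ischemic ratio moved more with depth, to 1.37 after thinning to 1000 UMIs and to 1.21 in cells of 5000 to 30000 UMIs, a range chosen after seeing the data. Over all alternatives it ran from 1.21 to 2.91, and the physical injury ratio from 3.41 to 5.37, so both stayed past 2-fold.

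At equal depth of 1000 UMIs, 11.5% of RGPs after physical injury (4.35 to 23.4) and 13.3% after ischemic injury (10.2 to 16.9) had a UMI of *Tnc*, against 0.699% and 4.20% of OPCs and 0% of 401 and 448 endothelial cells, which allows shares of up to 0.916% and 0.820% by the upper Clopper-Pearson limit. Cells with fewer than 1000 UMIs were left out of these shares, 24 of 76 RGPs after physical injury and 24 of 438 after ischemic injury. Unthinned and over all cells, the shares were 27.6% and 60.3% of RGPs and 8.31% and 12.2% of OPCs. In ischemic RGPs the 21 cells with the most *Tnc* held 54.8% of its counts at 2078 CPM, and the other 417 cells were at 126 CPM. Among ischemic OPCs the 280 cells outside the 14 richest in *Tnc* were at 6.91 CPM.

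*Ncan*, a lectican of the developing and injured brain, was the other member above OPCs, at 181 against 127 CPM after physical injury and 244 against 132 CPM after ischemic injury. Its log2 ratios of 0.52 (0.26 to 0.77) and 0.88 (0.75 to 1.02) stayed within 2-fold. The other lecticans lay on the other side. *Bcan* was at 182 against 625 CPM and 72.8 against 386 CPM, with ratios of -1.78 (-2.01 to -1.56) and -2.41 (-2.52 to -2.29). *Vcan* was at 500 against 1140 CPM and 288 against 1057 CPM, with ratios of -1.19 and -1.88. The lecticans thus split in RGPs, but along another line than in injured OPCs.

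*Tnr*, the tenascin of oligodendrocyte-lineage cells, was at 1092 against 3357 CPM after physical injury and 681 against 3094 CPM after ischemic injury, with log2 ratios of -1.62 (-1.71 to -1.53) and -2.18 (-2.22 to -2.15). The 2 tenascins therefore stood in opposite directions in the same cells. *Cspg4* was at 156 and 119 CPM in RGPs, with ratios of -1.23 (-1.49 to -0.99) and -1.19 (-1.30 to -1.08). *Ptprz1* was at 2146 and 1565 CPM, with ratios of -0.82 and -1.0, and *Cspg5* at 1055 and 448 CPM, with ratios of -0.86 and -1.41. At equal depth *Ptprz1* was still seen in 69.2% and 65.9% of RGPs.

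**Figure D3:**
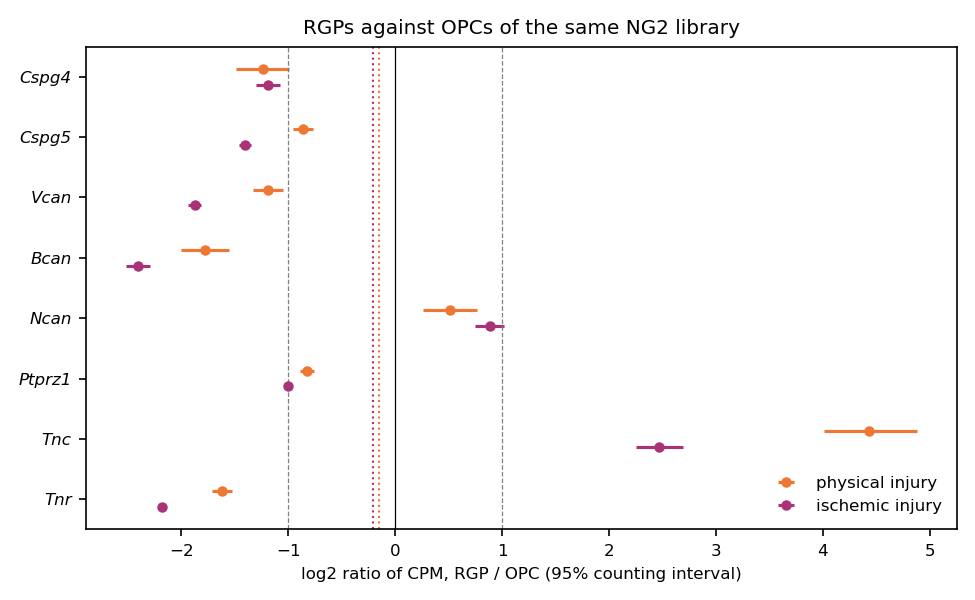
Log2 ratio of each member's CPM in RGPs over OPCs of the same library, physical and ischemic injury, with 95% counting intervals. *Tnc* (4.44 and 2.47) and *Ncan* (0.52 and 0.88) lie right of 0, the other 6 members lie left of it, and dotted lines mark the medians of all genes (-0.15 and -0.21).

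Between the injuries, RGPs of the ischemic library had 2 of 8 members past 2-fold lower, where 3.37% of 4270 genes were lower, and 0 higher, where 1.50% were. *Cspg5* had a log2 ratio of -1.23 (-1.33 to -1.14) and *Bcan* of -1.33 (-1.56 to -1.09). The members' median was -0.57 against 0.02 for all genes, and the TMM scale, with the genes tested anew, moves the latter by 0.15. *Ncan* was at 0.42 (0.21 to 0.65) and *Tnc* at -0.22 (-0.39 to -0.04), but neither kept its sign. *Ncan* was at -0.13 after thinning to 1000 UMIs and at -0.27 in cells of 5000 to 30000 UMIs, and *Tnc* at 0.51 when every cell counted equally and at 0.58 without cells that had 2 or more *Vtn* UMIs. Cell weight mattered here: 0 members were past 2-fold lower when every cell counted equally, and 1 when cells were thinned to 1000 UMIs.

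Within RGPs the members were also compared by whether a mitosis transcript was seen, which at this depth can miss dividing cells. Cells were split by whether they held a UMI of *Mki67* or *Top2a*, both made by dividing cells, after thinning to 1000 UMIs. From each library 24 cells with fewer UMIs were left out. This gave 119 with and 295 without in the ischemic library and 10 with and 42 without in the physical injury library. *Tnc* was at 123 CPM in ischemic RGPs with a mitosis UMI and at 321 CPM in those without, a log2 ratio of -1.38 (-1.51 to -1.25). After physical injury it was at 133 and 357 CPM, a ratio of -1.42 (-2.04 to -0.86). In each library the cell with the most *Tnc* was 1 without a mitosis UMI, with 130 counts after physical injury and 701 after ischemic injury. Without that cell, left out after seeing the data, the physical injury ratio was -0.49 with an interval that held 0 (-1.14 to 0.10), and the ischemic ratio was -1.05 (-1.19 to -0.92). The lower *Tnc* in cells with a mitosis transcript thus rested on 1 cell after physical injury. In the ischemic library it did not rest on the top cell alone. There, however, 21 RGPs held 54.8% of the *Tnc* counts, and leaving out more than 1 cell was not tried. Median depths were 43582 with against 37274 UMIs without in the ischemic library and 23302.5 against 17016.5 UMIs after physical injury.

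*Bcan* went the other way, at 96.0 with and 62.5 CPM without in the ischemic library (0.62, 0.44 to 0.79) and at 352 and 138 CPM after physical injury (1.35, 0.90 to 1.80). *Cspg5* had ratios of 0.26 and 0.50 and *Ptprz1* of 0.15 and 0.38, higher in the cells with a mitosis UMI. *Ncan* had ratios of -0.35 (-0.46 to -0.25) and -0.28 (-0.87 to 0.28), and *Cspg4* of 0.21 (0.06 to 0.35) and 0.40 (-0.15 to 0.93), so both intervals held 0 after physical injury. The intervals of *Tnr* (-0.12 and -0.11) and *Vcan* (0.06 and -0.36) stayed close to 0 or held it in at least 1 library. *Vcan* lay on opposite sides of 0 in the 2 libraries. The physical injury split rests on 10 cells, and there the intervals of *Cspg4*, *Ncan* and *Tnr* held 0, so the side of these members is not settled.

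**Figure D4:**
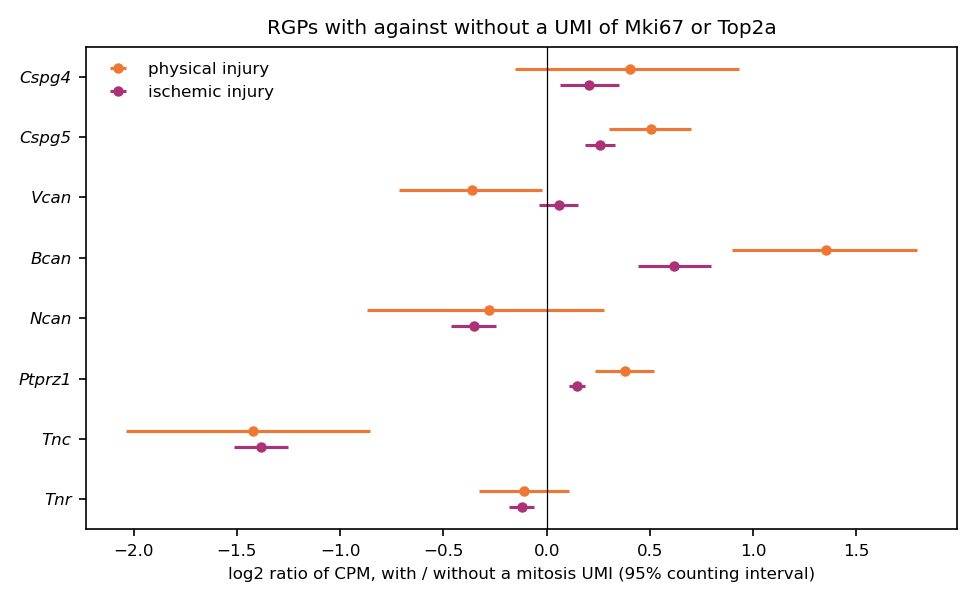
Log2 ratio of each member's CPM in RGPs with over without a UMI of *Mki67* or *Top2a*, in the physical and ischemic injury libraries, with 95% counting intervals. *Tnc* lies furthest left (-1.42 and -1.38) and *Bcan* furthest right (1.35 and 0.62), but without the 1 cell with the most counts *Tnc* would be at -0.49 after physical injury and at -1.05 after ischemic injury.

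In the pericytes of the NG2 line (clusters 0, 1 and 2; 3243, 1106 and 1085 cells) *Cspg4*, whose promoter drives the Cre of this line, was far above the other members. It was at 799 CPM (783 to 814) in naive pericytes, 761 (738 to 785) after physical injury and 765 (740 to 790) after ischemic injury. It was the only member to reach 50 CPM, and 0 of 1 were past 2-fold. The background was 0.193% of 4146 genes higher and 0.410% lower after physical injury, and 0.393% of 4068 genes higher and 0.00% lower after ischemic injury. The log2 ratios of -0.07 (-0.12 to -0.02) and -0.06 (-0.12 to -0.01) lay near the all-gene medians of -0.03 and -0.01.

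The 3 clusters taken singly ranged from 737 to 910 CPM of *Cspg4* in the naive library, from 675 to 825 after physical injury and from 711 to 874 after ischemic injury, and cluster 2 was the highest in each. At 1000 UMIs a cell, 52.9%, 52.4% and 50.1% of pericytes had *Cspg4*. The pericyte level of *Cspg4* was 168% (naive), 208% (physical injury) and 283% (ischemic injury) of the OPC level in the same library. That share moved with the OPC level, while the pericyte level stayed close to naive. Smooth muscle cells had *Cspg4* at 382, 348 and 348 CPM, and endothelial cells at 86.2, 53.1 and 54.0 CPM.

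The other 7 members in pericytes were between 0.08 and 15.95 CPM. OPCs stood above pericytes by 577-fold for *Ptprz1*, 367-fold for *Bcan* and 259-fold for *Tnr* in the naive library. Some of these low levels were higher after ischemic injury, *Ncan* at 0.31, 0.56 and 6.04 CPM, *Tnc* at 0.08, 0.56 and 3.45 CPM and *Ptprz1* at 6.72, 8.77 and 15.95 CPM. The glial transcript *Fabp7*, at 10.9, 14.7 and 58.9 CPM, was likewise highest in ischemic pericytes. Endothelial cells of these libraries had *Ptprz1* at 0, 9.21 and 10.1 CPM. *Tnr* was at 10.9, 7.28 and 15.5 CPM in pericytes, 14.9, 8.65 and 10.4 CPM in smooth muscle cells and 0, 3.52 and 8.01 CPM in endothelial cells, the naive 0 allowing up to 5.78 CPM by the upper Poisson limit. The part of other cells' transcripts in these low levels was not tested.

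Cluster 8 of the NG2 line, named mesenchymal-like pericytes, was the mural group of this line in which *Tnc* stood highest after both injuries. Its 177 naive cells had 0 counts of *Tnc*, where 3 counts would be 4.06 CPM. The 81 cells after physical injury were at 140 CPM (114 to 169) and the 240 cells after ischemic injury at 445 CPM (419 to 472), which is 34.4-fold and 110-fold that floor of the naive library. The lower 95% counting limits of the injured over naive ratio were 27.5-fold and 89.0-fold. The levels of the 3 libraries did not overlap. The cluster kept its pericyte transcripts, with *Vtn* at 12251, 14979 and 12642 CPM and *Cspg4* at 510, 606 and 444 CPM, and the contractile gene *Acta2* was at 281, 2167 and 1062 CPM and *Vim* at 365, 2411 and 2410 CPM.

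Few cells carried the *Tnc* counts. A UMI was seen in 8.64% and 22.5% of the injured cells. After physical injury 1 cell held 69 of the 106 counts. The 4 cells with the most held 97.2%, leaving the other 77 at 4.46 CPM, near the naive floor of 4.06 CPM. The level of that library thus rested on these few cells. After ischemic injury 12 cells held 74.2% at 2247 CPM, and the other 228 were at 134 CPM, still above the naive floor. Those 12 cells had *Vtn* at 3003 CPM against 14302 CPM in the rest, *Vim* at 4497 against 2051 CPM, and *Fabp7* at 16.5 against 36.1 CPM. Their median depth was 31369 UMIs against 8196.5. Without the cells that held 2 or more UMIs of the glial genes *Fabp7*, *Ptprz1* and *Olig1*, *Tnc* was at 144 CPM after physical injury (3 of 81 cells left out) and 474 CPM after ischemic injury (29 of 240), a choice made after seeing the data. The cells richest in *Tnc* already held less *Fabp7* than the rest, so this removal could hardly lower the level. The part of doublets in it was not tested.

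No other member shared this pattern. *Vcan* in cluster 8 was at 1.35, 3.95 and 4.05 CPM, *Tnr* at 12.2, 6.58 and 5.27 CPM and *Ptprz1* at 2.71, 6.58 and 8.10 CPM. In clusters 0 to 2 of the same ischemic library *Tnc* was at 3.45 CPM, on 16 counts against 1 in the naive library. In smooth muscle cells it was at 3.46 CPM, on 8 counts against 0. The limits of 419 to 472 CPM in cluster 8 and of 1.97 to 5.60 CPM in clusters 0 to 2 lay far apart.

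In the Tbx18 line the pericyte cluster (cluster 2; 226, 433 and 86 cells, with medians of 6547.5, 2540 and 3791.5 UMIs) again had *Cspg4* as the only member past 50 CPM. It was at 722 CPM (680 to 767) in naive mice, 368 (338 to 400) after physical injury and 443 (376 to 518) after ischemic injury. Both injured libraries lay below the naive one. The log2 ratios were -0.97 (-1.12 to -0.82) and -0.71 (-0.96 to -0.46), so 0 of 1 were past 2-fold, where 6.42% of 4439 genes were higher and 3.67% lower after physical injury and 7.04% of 4559 genes were higher and 5.18% lower after ischemic injury. The medians of all genes were -0.01 and 0.02, and TMM, with the genes tested anew, moves the second by -0.11.

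The pericyte transcripts *Vtn* (12420, 7714 and 8131 CPM) and *Abcc9* (1724, 664 and 780 CPM) were also lower in these injured cells, and *Vim* was at 86.1, 642 and 633 CPM. *Acta2*, the contractile transcript of smooth muscle, was at 96.8, 1615 and 573 CPM in the same sums, and smooth muscle cells of this line had *Cspg4* at 345, 305 and 375 CPM. The part of these shifts and of depth in the *Cspg4* difference was not tested. Among cells of 5000 to 30000 UMIs, a range chosen after seeing the data, the physical injury ratio was -1.21, past the 2-fold line. The other 7 members were between 0 and 6.74 CPM in this cluster, and *Tnc* had 0, 7 and 1 counts.

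Cluster 4 of the Tbx18 line, which holds 157, 349 and 143 cells, did not bear out a pericyte label in the injured libraries. *Vtn* was at 7549 CPM in the naive cells and at 37.7 and 9.98 CPM after the injuries, *Abcc9* at 477 CPM and then 0 in both, and the 8 pericyte markers summed to 15468, 131 and 35.3 CPM. The injured cells had *Vim* at 4305 and 5012 CPM, *Col1a1* at 417 and 1529 CPM and the myeloid transcript *Cd74* at 479 and 356 CPM. The cluster is therefore given by its number. Medians of 1724, 6756 and 8461 UMIs show that its naive cells were also shallow.

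*Cspg4* in cluster 4 followed the markers, at 326 CPM (264 to 399) in naive cells, 12.4 (8.62 to 17.4) after physical injury and 9.98 (5.32 to 17.1) after ischemic injury. *Tnc* ran opposite, with 0 counts in naive cells, 96.7 CPM (85.3 to 109) after physical injury and 79.9 CPM (65.3 to 96.8) after ischemic injury. These are 9.39-fold and 7.76-fold the naive floor of 10.3 CPM, and the lower limits of the injured over naive ratio were 7.58-fold and 6.20-fold. *Vcan* was at 0, 13.2 (9.23 to 18.2) and 28.4 CPM, the injured levels being 1.28-fold and 2.76-fold the same floor. The lower limits of its ratio were 0.99-fold and 2.13-fold. *Ptprz1* and *Tnr* had at most 4 counts in any of the 3 libraries.

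After physical injury 17 of the 349 cells held 70.1% of the *Tnc* counts at 796 CPM and the other 332 were at 31.6 CPM, and after ischemic injury 7 of 143 cells held 51.9% at 504 CPM. Those 17 cells had *Vim* at 8789 against 3887 CPM and *Col1a1* at 1226 against 341 CPM. In both lines the cells richest in *Tnc* outside the glia were thus rich in *Vim* relative to the rest of their cluster. Fibroblasts of the Tbx18 line had *Tnc* at 134 CPM after physical injury, but 114 of the 116 counts lay in 1 of 116 cells, and at 245 CPM (149 to 378) after ischemic injury, where all 20 counts lay in 1 of 10 cells.

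**Figure D5:**
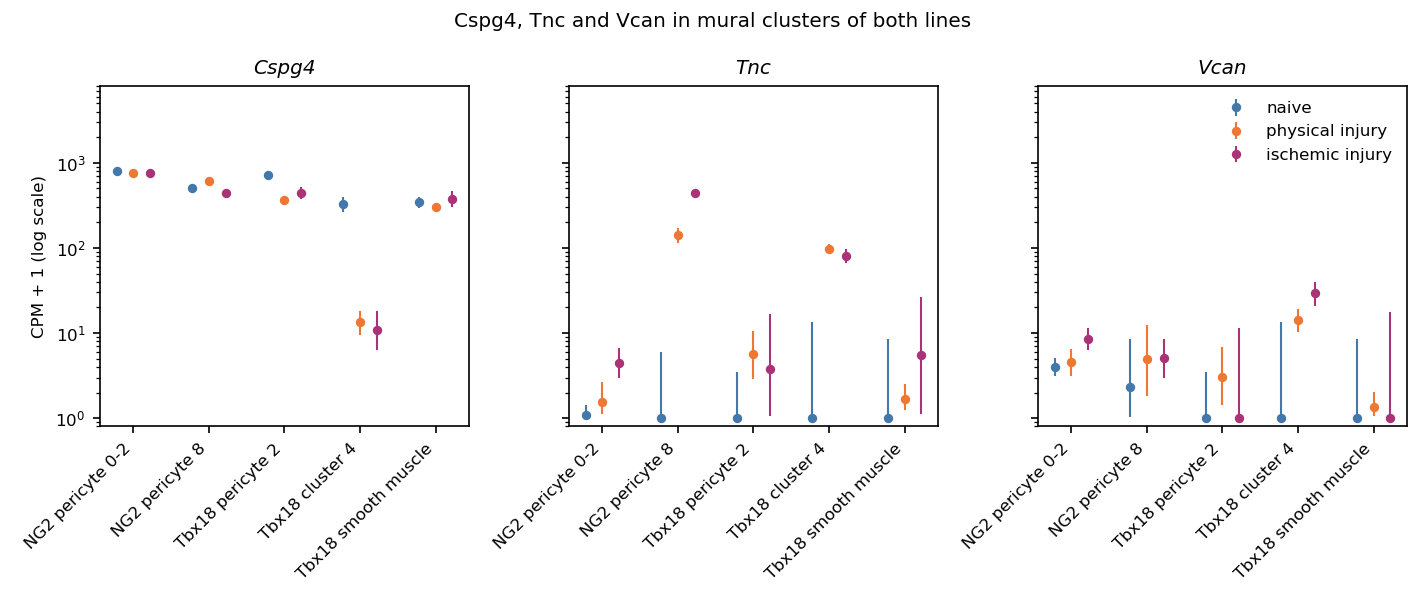
Levels of *Cspg4*, *Tnc* and *Vcan* (CPM + 1, log scale) in pericyte sums of both lines and in cluster 4 and smooth muscle sums of the Tbx18 line, by library, with exact Poisson 95% limits. *Tnc* is at 0 counts in the naive library of cluster 8 (NG2) and cluster 4 (Tbx18) and between 79.9 and 445 CPM in their injured libraries, while *Cspg4* is near 10 CPM only in injured Tbx18 cluster 4.

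Mature oligodendrocytes (103, 294 and 592 cells), which myelinate axons and are made from OPCs, held little of most members. *Bcan* was at 0.76 CPM (1 count) in the naive library, 1.85 (13 counts) after physical injury and 44.6 (773 counts; 41.6 to 47.9) after ischemic injury. Its ischemic level lay far above both others. Of its 773 counts, 651 lay in 29 cells, at 516 CPM against 7.60 CPM in the other 563 cells. These 29 cells had the OPC transcripts *Ptprz1* at 1.58 CPM and *Pdgfra* at 0.79 CPM, and leaving out the 51 cells with 2 or more UMIs of *Ptprz1*, *Pdgfra* and *Vcan*, also chosen after seeing the data, gave 41.9 CPM. Since the 29 cells held so little *Ptprz1* and *Pdgfra*, that removal could hardly lower the level.

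*Tnr* in these cells was at 2.29, 9.80 and 23.0 CPM (20.8 to 25.4). Its richest 29 ischemic cells differed from those of *Bcan*, since they had *Ptprz1* at 100 CPM, *Vcan* at 62.5 CPM and *Fabp7* at 72.9 CPM. Endothelial cells of the ischemic library had *Bcan* at 1.69 CPM and *Tnr* at 8.01 CPM. *Bcan* in ischemic oligodendrocytes thus lay above the level in endothelial cells, which should lack it. The part of doublets and of other cells' transcripts was not tested for *Bcan* or for *Tnr*.

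Genes that build, cut or bind these proteins were read from 6 lists, chosen by function with earlier results of these data known. Of 3 tested genes of chondroitin sulfate synthesis, 2 were lower in RGPs than in OPCs after physical injury and 3 after ischemic injury, with 0 higher in either. They were *Xylt1*, which adds the first sugar of the chain, at 577 against 1629 CPM and 461 against 1010 CPM, *Csgalnact1*, which starts the chondroitin chain itself, at 53.6 against 199 CPM and 25.5 against 142 CPM, and in the ischemic library *Chsy3*, a chain polymerase, at 18.5 against 61.8 CPM. Of 2 tested sulfotransferases and epimerases, the uronyl 2-sulfotransferase *Ust* was lower in both, at 83.5 against 350 CPM and 69.1 against 285 CPM. So *Bcan*, *Vcan* and *Tnr* and, but for *Chsy3* after physical injury, these chain enzymes were past 2-fold lower in RGPs. Of all tested genes 15.3% and 19.6% were past 2-fold lower, and the medians of all genes were -0.15 and -0.21. The 6 lists were not read on the TMM scale, on which fewer members were past 2-fold lower in ischemic RGPs.

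Of 8 tested receptors and ligands, 3 were lower in RGPs after each injury, and 1 was higher after physical injury. Of all tested genes 15.3% and 19.6% were lower after physical and ischemic injury, and 12.9% and 14.2% were higher. *Cntn1*, the neural receptor that binds tenascin-R and PTPRZ, was at 599 against 1215 CPM and 480 against 1035 CPM, and *Itga9*, an integrin subunit that binds tenascin-C, at 54.6 against 160 CPM and 29.6 against 152 CPM. *Lrp1*, a scavenger receptor, was at 160 against 374 CPM and 123 against 306 CPM, and midkine (*Mdk*), a ligand of PTPRZ, at 244 against 116 CPM after physical injury. *Cd44*, the hyaluronan receptor, was 1 of 2 tested genes of its list in the ischemic library and higher there, at 82.6 against 18.2 CPM.

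Of 7 tested proteases and their inhibitors, 1 was lower in RGPs after physical injury, and 3 were lower and 1 higher after ischemic injury. These counts stand beside the same shares of all tested genes, 15.3% and 19.6% lower and 12.9% and 14.2% higher. *Mmp16* was at 307 against 831 CPM and 266 against 612 CPM, and *Mmp14*, both being membrane metalloproteases, was higher in the ischemic library at 94.6 against 40.3 CPM. Of 2 tested genes of other scar matrix, *Sparc* was higher and *Sparcl1* lower in both libraries. *Sparc* was at 130 against 29.9 CPM and 145 against 71.1 CPM, and *Sparcl1* at 272 against 775 CPM and 181 against 529 CPM.

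In OPCs few partner genes were past 2-fold against naive. After ischemic injury 2 of 6 tested proteases were higher and 0 lower, where 3.64% of all tested genes were higher and 2.40% lower. They were *Adamts1*, a protease that cuts lecticans, at 105 against 49.2 CPM, and *Adamts9*, another of that kind, at 71.1 against 28.1 CPM. Both reached 50 CPM only in the ischemic library, so the rule could not have called them lower. After physical injury 1 of 3 tested genes of other scar matrix was lower, *Sparc* at 29.9 against 93.2 CPM, where 1.58% of all tested genes were lower. *Sparc* reached 50 CPM only in the naive library, so it could not have been called higher. Naive OPCs also held *Vtn* at 1039 CPM against 116 CPM after physical injury, and the part of pericyte RNA in the *Sparc* difference was not tested. The remaining lists had 0 past 2-fold of 1 to 8 tested genes. In NG2 pericytes 0 genes of any list were past 2-fold after either injury, where at most 0.410% of all tested genes were in either direction.

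In pericytes of the Tbx18 line, 5 of 7 tested proteases and inhibitors were higher and 1 lower after each injury, where 6.42% and 7.04% of all genes were higher and 3.67% and 5.18% lower. *Adamts4*, which cuts *Bcan* and *Vcan* products, was at 15.5 CPM in naive pericytes, 190 in the physical injury and 221 in the ischemic library, and *Adamts1* at 190, 661 and 993 CPM. *Timp3*, an inhibitor of these proteases, was at 347, 954 and 1237 CPM, and *Timp2* at 17.5, 122 and 136 CPM. *Adamts1* and *Timp3*, which reached 50 CPM in the naive library too, were higher in the injured libraries, beside *Vtn* and *Abcc9* that were lower. *Adamts4* and *Timp2* reached 50 CPM only in the injured libraries, so the rule could not have called them lower. *Chsy3* was at 19.5, 63.3 and 119 CPM and *Fn1*, fibronectin, at 25.6, 61.3 and 70.9 CPM, while *Chst3*, a chondroitin sulfotransferase, was at 66.6, 28.3 and 19.9 CPM. By the same rule *Chsy3* and *Fn1* could not have been called lower, nor *Chst3* higher.

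Across the 31 cluster and library sums of the NG2 line with at least 20 cells, *Cspg4* had a pattern apart from the other members. Its Pearson correlations of log2(CPM + 1) with the other 7 lay between -0.02 and 0.12. The pairs among *Cspg5*, *Vcan*, *Bcan*, *Ncan*, *Ptprz1* and *Tnr* lay between 0.84 and 0.96, and those of *Tnc* with these 6 between 0.56 and 0.70. Sums of the same library share its depth and free RNA, and the high values rest on the OPC and RGP sums: in the 23 sums without glia of that lineage, *Cspg5* with *Bcan* was -0.70 and *Ptprz1* with *Tnr* 0.56.

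Over the same 31 sums the genes most like *Cspg4* among 8848 candidates were *Plce1* (0.98), *Spry4* (0.98), *Rbms3* (0.97), *Fam110b* (0.96) and *Kctd1* (0.96). For *Ptprz1* they were *Nnat* (0.98), *Cacng4* (0.96), *Stk32a*, *Nxph1* and *Vxn*, and for *Ncan* *Gm3764* (0.98), *Syt6*, *Fam135b* and *Grm5*, with 4 of the 5 given here. *Cspg5* had *Fgf14*, *Kcnd2*, *Neto1*, *Lhfpl3* and *Dcx*, and *Vcan* had *Minar2*, *Rgs7*, *Myt1l*, *Sox21* and *Nrg3*. *Bcan* had *Sh3rf3*, *Dok6*, *Chl1*, *Vat1l* and *Gm42948*, and *Tnr* had *Csmd1*, *Nrxn3*, *Gm42948*, *Sgcd* and *Sox21*, so this pair shared *Gm42948*. *Tnc* had 8030451A03Rik (0.93), which overlaps it on the opposite strand, then *Sox11* (0.88), *F3* (0.80), *Bzw2* (0.80) and *Ednrb* (0.79), the lowest likeness of the 8 members. By Spearman's rho between 0 and 3 of each 5 stayed in the list.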

How the data were processed

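Cells of 6 libraries, 1 per line and condition, were measured by 3′ droplet sequencing. Raw UMI counts for each gene in every cell were deposited, with the cluster number the authors gave that cell. The submitters' processing notes name Cell Ranger 7.0.0 and GRCm38/mm10. The study's methods give a range of Cell Ranger versions that ends with this one, so the libraries may not all have been counted with 1 version. The authors filtered the cells before deposit. Counts were summed by cluster and library here and given as CPM with 95% exact Poisson limits. The cluster names follow the study and were checked against marker lists. Neither doublet calls nor a treatment of doublets are given in the sources used here, and no doublet caller was run. Cells with transcripts of another class were left out as an alternative. The members, gene lists and alternatives were chosen with earlier results of these data known. All 8 members are named, with partner genes past 2-fold (at most 5 of a list in a comparison) and the 5 genes most like each member. Some genes of the lists are not reported here. Upstream windows came from RefSeq (GRCm38.p6), which matched 7 of 8 members, with letters inside the annotated gene dropped, and *Cspg5* has no entry. Positions came from GENCODE, whose release may not be the one the authors used. Alternatives were mean CPM over cells, TMM factors, thinning to 1000 or 2000 UMIs, a pseudocount of 10, no minimum CPM, the naive-table clusters, Spearman's rho and cells of 5000 to 30000 UMIs. The fold rule was tested on simulated data. The depth window and the removal of single cells or cells with glial UMIs were chosen after seeing the data. TMM factors came from edgeR 4.0.16 under R 4.3.3, and the rest was done in Python 3.11.15 with pandas 2.3.3, scipy 1.17.1 and numpy 2.4.6.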

Additional observations from a re-analysis of the deposited data

Results flagged for a closer look

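*Cspg5* and *Tnc* lay on opposite sides of the naive level in OPCs of the 2 injured libraries. *Cspg5* had a log2 ratio to naive of 0.13 after physical injury and of -0.56 after ischemic injury. *Tnc* had -1.01 after physical injury and 0.74 after ischemic injury, on 53 and 186 counts against 16 in the naive library. Each injury is 1 library and both ratios share the naive one, so the difference between the injuries was not tested.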

How the results depend on the processing

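No paired analysis was possible because each condition is 1 library and no test was made. Of 290 alternative values of the members' log2 ratios in OPCs and RGPs, 173 stayed within the 95% counting interval and 14 had the other sign, 0 of them for a member past 2-fold. Those 14 include *Cspg4* in ischemic against physical injury RGPs, at -0.39 over the summed counts, 0.39 by the mean over cells and 0.81 after thinning, beside the values of *Tnr*, *Ptprz1*, *Ncan* and *Tnc* given with the comparisons. In ischemic against naive OPCs, 1 member (*Tnc*) was higher by the mean over cells, and thinning to 1000 UMIs gave 1 higher and 1 lower. In ischemic against physical injury OPCs, 1 (again *Tnc*) was higher by the mean over cells, without a minimum CPM, after thinning and in cells of 5000 to 30000 UMIs (the last chosen after seeing the data). TMM gave 2 higher and 3 lower in ischemic RGPs against OPCs, since it moves the scale. In ischemic against physical injury RGPs, 0 were lower by the mean over cells and 1 after thinning. *Cspg4* after physical injury against naive was at 0.026 after thinning in NG2 pericytes, and in Tbx18 pericytes at -0.81 by the mean over cells and -1.21 in cells of 5000 to 30000 UMIs. *Tnc* in ischemic cluster 8 was at 474 CPM without cells with glial UMIs, a choice also made after seeing the data. The causes of these shifts were otherwise not tested. With 1 library a condition, no value here can be set against the spread between animals, and the 100 naive OPCs and 17 naive RGPs limit every ratio that rests on them.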

Other observations

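A small cluster of the Tbx18 line, number 6, held 14 cells of the physical injury library, 8 of the ischemic one and none of the naive one. It carried the neural members, with *Ptprz1* at 581 CPM (477 to 701) and 2056 CPM (1817 to 2318), *Cspg5* at 282 and 1386 CPM, *Bcan* at 256 and 570 CPM and *Tnr* at 85.3 and 578 CPM. *Cspg4* was at 0 and 30.8 CPM (4 counts). The glutamate transporter *Slc1a2* was at 1087 and 4405 CPM in the same cells, and *Vtn* had 0 counts in both libraries. These sums rest on so few cells that they are given as levels only.

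In the naive Tbx18 library *Cspg4* was also counted outside the clusters named as mural. It was at 70.1 CPM in endothelial cells and at 497 CPM in cluster 3, which held 76 cells with a median of 1117.5 UMIs. The study names cluster 3 microglia, but no marker of its naive cells is given here, so it is given by number. After the injuries the same clusters were at 3.09 and 0.14 CPM (endothelial) and at 4.52 and 0 CPM (cluster 3). The pericyte transcript *Vtn* was lower with it in the endothelial cells, at 1192, 38.8 and 5.46 CPM. *Tnr* had 74 counts in smooth muscle cells after physical injury, at 8.58 CPM (6.73 to 10.8), against 0.49 CPM in the endothelial cells of that library.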
